A study of Rattus norvegicus with 60 samples.

Results

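The popliteal lymph node on the side of a bled knee was compared with the node of sham rats, as 11 arrays of rats K1 to K11 against 9 arrays of rats C1 to C9, chosen by their sample titles. These are 20 of the 60 arrays of the study, which also profiled knee tissue and the node of the opposite, contralateral side. All 20 rats had haemophilia A, in which coagulation factor VIII is lacking, so the sham rats carried the same defect. Tissue was taken 24 h after a knee bleed had been induced or a sham procedure performed. Each array held the RNA of 1 node of 1 rat, and no animals were pooled. The bled and sham nodes came from different animals. The bled-side node was always the left and the sham node the right, so in this comparison treatment and body side cannot be told apart. The bled knee is called injured in the labels, and blood and injury cannot be told apart either. The sources used here did not give strain, sex, age or array batches.

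The popliteal node receives the lymph of the lower hind limb. Macrophages lining its sinuses take up particles, red cells and proteins that arrive with that lymph, and they break down haemoglobin into haem and iron. B cells and T cells lie in separate compartments held by fibroblastic reticular cells, and activated B cells mature there into plasma cells, which enlarge their endoplasmic reticulum to secrete antibody. Fat surrounds the node, so a dissected node can carry adipocyte RNA. In a bulk tissue such as this, more cells of a type and more RNA per cell cannot be told apart.

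Defining genes of lymph node were abundant in both groups. Ms4a1, which encodes the B cell antigen CD20, had mean log2 values of 11.36 in bled-side and 11.37 in sham nodes, and the T cell receptor subunit gene Cd3e had 10.31 and 10.34. Array medians lay between 5.7 and 5.93. The sham arrays of C2 and C9 stood apart from the rest. Their correlations with the other sham arrays were 0.984 and 0.966, against at least 0.993 for the remaining sham arrays, and 1681 and 3347 of 36685 probe sets lay 2-fold or more from the mean of the others, against 145 to 413 on each of the other 18 arrays. The mean log2 value of 25 adipocyte genes ran from 7.17 to 8.55 (median 8.11) in bled-side nodes. In sham nodes it ran from 7.17 to 8.45 (median 7.65), with C2 at 7.38 and C9 at 7.47. Of these 25 genes 23 lay above the array median. Adipoq, the adiponectin gene that defines the list, had means of 9.64 and 9.22, so both groups carried fat RNA. Counts of called members are therefore given also without C2 and C9, and with the adipocyte mean as a covariate. Of 110 called genes that are named by the rule, 72 kept their call without C2, 96 without C9, 59 without both and 50 with the covariate. The reported fit takes its spread from the contralateral arrays too. With only the bled-side and sham arrays fitted, 76 of the 110 kept their call, and Lep, Cidec, Pparg and Dusp1 were among those that lost it.

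**Figure D1:**
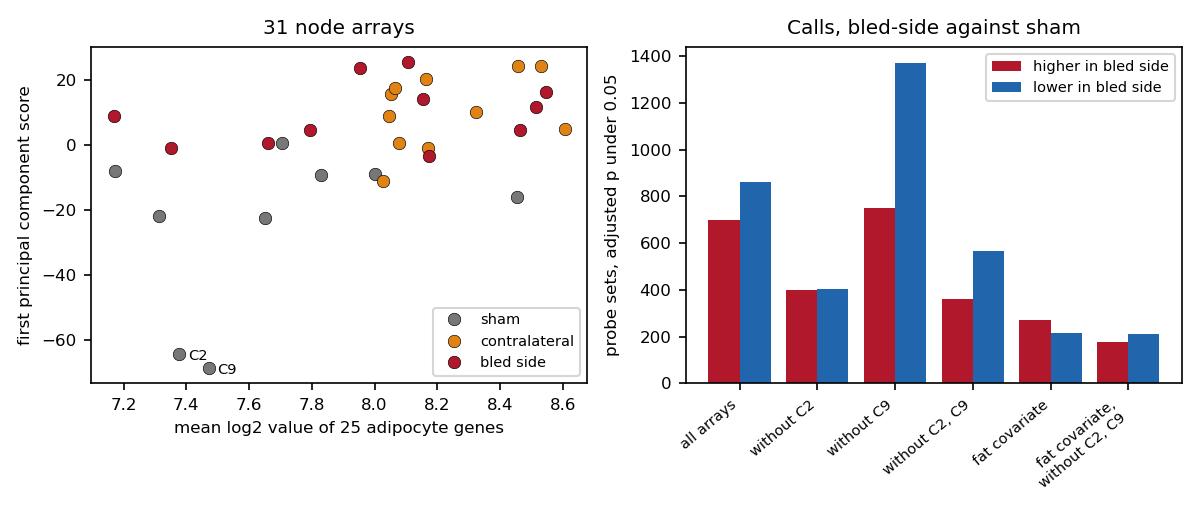
Left: score on the first principal component of the 31 node arrays (vertical) against the mean log2 value of 25 adipocyte genes (horizontal), 1 point per array, with sham, contralateral and bled-side nodes in separate colours. Right: number of probe sets higher or lower in bled-side than in sham nodes at an adjusted p under 0.05, for all arrays and for 5 alternatives. C2 and C9 lie at −64.1 and −68.5, the other 29 arrays between −22.5 and 25.4, and the higher calls fall from 701 to 398 without C2.

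In the bled-side node, Mt2A (a metallothionein), Lipg and Pla2g2a (lipid-cleaving enzymes), Vsig4 (a macrophage receptor), Timp1 (a protease inhibitor), Cfb (complement factor B) and Sdc1 (a plasma cell marker) were higher than in sham nodes. Prg2, an eosinophil granule protein gene, and Spon2, a matrix protein gene, were lower. Of 36685 probe sets, 1561 (4.26%) passed an adjusted p under 0.05, with 701 (1.91%) higher and 860 (2.34%) lower. A change of 2-fold or more was seen in 43 of the higher and 2 of the lower probe sets. Taking 1 probe set for each of 18166 named genes, 550 (3.03%) were higher and 447 (2.46%) lower, and the median difference over all these genes was −0.003 on the log2 scale. These percentages are the background for the gene groups. They cover dim genes too, whereas most members of most lists lay above the array median. With dim probe sets left out, 966 were called higher and 1140 lower from fewer probe sets, so the share called was larger among brighter ones. The values of the groups did not overlap in 69 probe sets (0.188%), 37 (0.101%) with bled-side arrays all above and 32 (0.0872%) with bled-side arrays all below the sham arrays. The number of calls rested on single arrays: it was 803 (398 higher, 405 lower) without C2, 954 (465 and 489) without K11, 1048 with 549 lower without K8, and 2122 (750 and 1372) without C9. Centring each array on its median gave 938 higher and 414 lower calls (69.4% higher, against 44.9%), so the split between directions depended on the scaling. Probe sets called at 2-fold lower numbered 1 to 9 when any 1 array was left out.

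Mt2A, a metallothionein gene whose protein binds zinc and copper, was the named gene with the largest difference among those above the median level. Its log2 values ran from 11.09 to 13.53 with a median of 12.4 in the 11 bled-side nodes, and from 9.84 to 11.15 with a median of 10.53 in the 9 sham nodes. The difference was 1.80 ± 0.27 (SE), or 3.49-fold, with an adjusted p of 0.000786. In 10 of 11 bled-side arrays Mt2A was above every sham array, and only the lowest overlapped the sham range. A second probe set of Mt2A gave 2.27 ± 0.38. Mt1, the neighbouring metallothionein gene, had bled-side values of 10.36 to 12.25 (median 11.03) and sham values of 9.74 to 10.65 (median 10.17), a difference of 0.87 ± 0.18 (adjusted p = 0.00708). Metallothionein transcripts resemble each other, and probes for one may read another, so their separate values are uncertain.

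Metallothionein genes are known to be induced by zinc, through the factor MTF-1, and by glucocorticoids. The stretches before their start sites are shown because both genes were higher and both hold several metal response element cores. They are the 250 bases before the RefSeq start site in GRCr8, on the minus strand, at chr19:10838709-10838958 for Mt2A and chr19:10832976-10833225 for Mt1, written 5′ to 3′ with each core in capitals.
Mt2A: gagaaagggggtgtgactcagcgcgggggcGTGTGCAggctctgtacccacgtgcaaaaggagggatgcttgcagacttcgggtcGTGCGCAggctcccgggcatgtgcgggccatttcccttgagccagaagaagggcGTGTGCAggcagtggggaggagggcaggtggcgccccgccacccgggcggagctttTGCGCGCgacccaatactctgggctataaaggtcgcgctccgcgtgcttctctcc
Mt1: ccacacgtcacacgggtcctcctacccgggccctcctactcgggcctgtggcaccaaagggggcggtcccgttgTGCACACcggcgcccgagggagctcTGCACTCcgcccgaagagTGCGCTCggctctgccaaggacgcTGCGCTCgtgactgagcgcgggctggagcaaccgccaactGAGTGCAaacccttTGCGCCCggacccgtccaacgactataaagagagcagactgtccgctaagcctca
The core was searched as TGCGCNC or TGCACNC on both strands, and it was found 4 times for Mt2A and 6 times for Mt1. In windows of 300 bases, from 250 before to 50 after the start, it occurred in 7 of the 21 promoters matched among 23 measured oxidative stress and metallothionein genes, and in 24.231% of all 33469 RefSeq promoters in the table. Among those 7, Gclm was also higher and Ncf1 was lower. Mt3, Osgin1 and Keap1 hold the core and were not called, with differences of −0.04, 0.13 and −0.02. A match is a match of letters and shows no binding.

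Of 23 measured oxidative stress and metallothionein genes 8, Mt1 and Mt2A included, were higher and 1 was lower, with a list median of 0.23. Gsta1, a glutathione transferase gene that is not on this list, ran from 7.27 to 8.32 (median 7.67) in bled-side and from 5.76 to 6.78 (median 6.62) in sham nodes, with no overlap and a difference of 1.26 ± 0.16 (adjusted p = 0.000156). Nqo1, a quinone reductase gene controlled by NRF2, also did not overlap, at 6.62 to 8.01 against 5.17 to 6.44 (0.79 ± 0.17, adjusted p = 0.00887). Gclm, the modifier subunit of the enzyme that limits glutathione synthesis, differed by 0.56 ± 0.13 (adjusted p = 0.014). The lower member was Ncf1, a subunit of the phagocyte NADPH oxidase, at −0.24 ± 0.07, named here because it was the only one. The list had 6 higher members without C2, 5 without C2 and C9, and 4 with the adipocyte covariate. No member was called lower without C2, without K11 or with the covariate, and 1 was without C2 and C9. Nqo1 and Gclm lost their calls with the covariate, and Gclm also without C2 and C9.

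**Figure D2:**
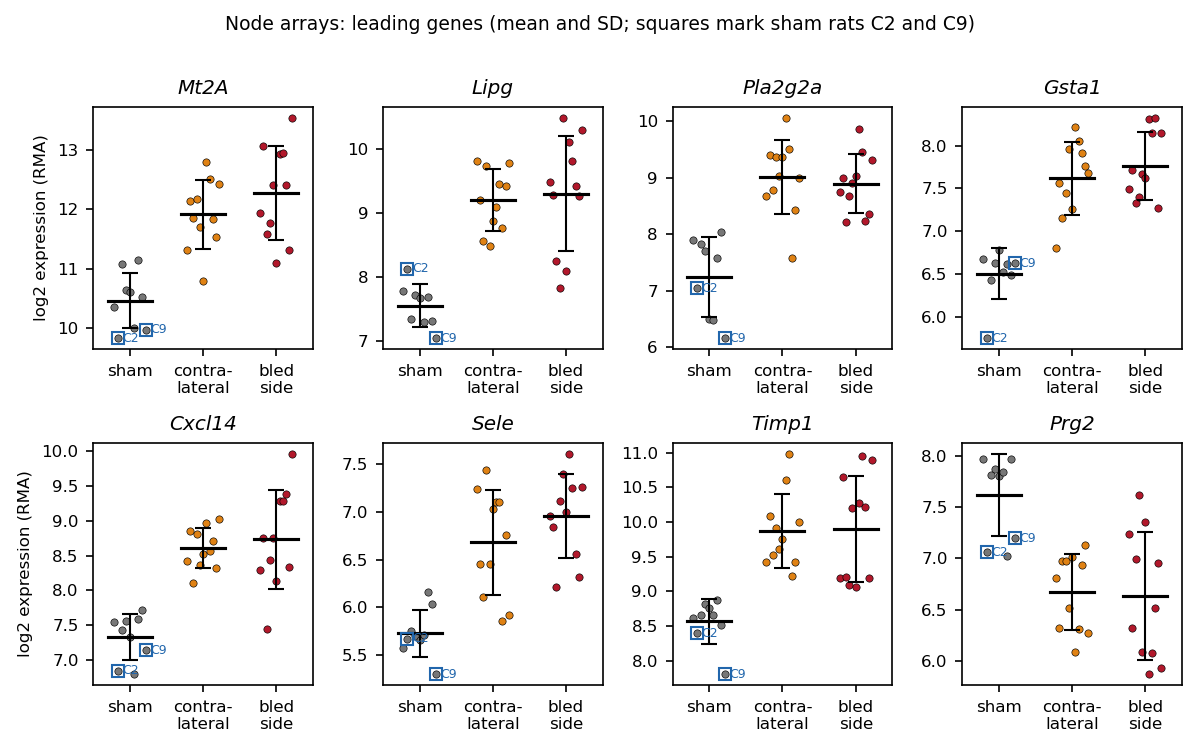
Log2 values (RMA) of 8 genes in each node array, with mean and SD, for sham (9), contralateral (11) and bled-side (11) nodes; squares mark sham rats C2 and C9. Bled-side points of Gsta1, Pla2g2a, Sele and Timp1 lie above all sham points, and those of Prg2 lie mostly below.

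Secreted lipases and acute-phase genes were among the largest changes. Lipg, which encodes endothelial lipase, ran from 7.83 to 10.49 (median 9.42) in bled-side and from 7.04 to 8.13 (median 7.66) in sham nodes, a difference of 1.75 ± 0.27, or 3.37-fold (adjusted p = 0.00087). In 9 of 11 bled-side arrays it exceeded the highest sham array. Pla2g2a, a secreted phospholipase A2 gene, ran from 8.21 to 9.87 (median 8.9) against 6.16 to 8.04 (median 7.57), with no overlap and a 3.13-fold difference (1.65 ± 0.27, adjusted p = 0.00143). Serpina3n, an acute-phase protease inhibitor gene, was 3.39-fold higher (1.76 ± 0.41, adjusted p = 0.0118). Its ranges overlapped more, at 9.49 to 12.4 against 7.97 to 11.19, and 5 of 11 bled-side arrays exceeded the highest sham array. With the adipocyte covariate the Serpina3n difference was 1.33 (adjusted p = 0.0696) and without C2 and C9 it was 1.45 (adjusted p = 0.0624), and the calls of Lipg and Pla2g2a were kept. Reg3g, which encodes an antimicrobial lectin, was 2.63-fold higher (SE 0.31 on the log2 scale, adjusted p = 0.00899). Sfrp4, a secreted Wnt antagonist gene, was higher by 1.47 ± 0.36 (adjusted p = 0.0178). Its mean passed the median level only in the bled-side group, at 6.67 against 5.20 in sham nodes. Sfrp4 lost its call with the covariate (1.21, adjusted p = 0.0917) and without C2 and C9 (1.24, adjusted p = 0.0806). LOC500161 ran from 9.86 to 12.79 (median 11.41) in bled-side and from 9.29 to 11.11 (median 9.94) in sham nodes, a 2.48-fold difference (1.31 ± 0.32, adjusted p = 0.0178). In 6 of 11 bled-side arrays it exceeded the sham range, and its call was lost with the covariate (adjusted p = 0.0501) and without C2 and C9 (adjusted p = 0.0794).

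Of 23 measured sinus and resident macrophage markers 7 were higher and none was lower (median 0.19). Vsig4, a complement receptor of resident macrophages, ran from 7.2 to 9.48 (median 8.04) in bled-side and from 5.29 to 7.62 (median 6.9) in sham nodes, a 3.05-fold difference (1.61 ± 0.29, adjusted p = 0.00237). Sham array C9 was the lowest for Vsig4, and without it the difference was 1.44 (adjusted p = 0.00405). Cd163, the scavenger receptor that takes up haemoglobin bound to haptoglobin, was uneven between rats. Its bled-side values ran from 8.68 to 11.31 (median 9.72), whereas the sham values lay within 8.31 to 8.82, and 8 of 11 bled-side arrays exceeded all sham arrays (1.21 ± 0.29, adjusted p = 0.0147). Gpnmb, a gene of lipid-loaded macrophages, differed by 0.73 ± 0.17 (adjusted p = 0.0136). Msr1, a scavenger receptor gene, differed by 1.00 ± 0.30 (adjusted p = 0.0494), but its call was lost on leaving out any 1 of 14 arrays. The list had 5 higher members without C2, 5 without C9, 3 without both, and 2 with the adipocyte covariate, under which Cd163 stood at 1.07 (adjusted p = 0.0704). Gpnmb lost its call with the covariate and without both arrays.

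Of 19 measured genes of monocytes and recruited macrophages, 5 were higher and none was lower (median 0.22), and the count was 5 on leaving out any 1 array, 4 without C2 and C9 together, and 4 with the adipocyte covariate. Ccr2, the receptor by which monocytes follow CCL2, ran from 9.87 to 10.97 (median 10.4) in bled-side and from 7.25 to 9.97 (median 9.32) in sham nodes (1.13 ± 0.22, adjusted p = 0.00404). Only C9 was below 9 in this gene, and 9 of 11 bled-side arrays exceeded the highest sham array. Fcnb, which encodes the myeloid lectin ficolin B, differed by 1.30 ± 0.23 (adjusted p = 0.002), and Vcan, the versican gene, by 1.25 ± 0.25 (adjusted p = 0.00551). Clec7a, the beta-glucan receptor gene, differed by 0.74 ± 0.15 (adjusted p = 0.00635). Of 20 neutrophil genes, 7 of them above the array median, 2 were higher: Lcn2 (0.89 ± 0.20, adjusted p = 0.0116) kept its call on leaving out any 1 array, and Trem1 (0.66 ± 0.20, adjusted p = 0.0475) lost it without any 1 of 12. Neither kept its call with the covariate or without C2 and C9.

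Of 24 measured haem and iron handling genes 8 were higher and none was lower (median 0.12), and the count dropped to 5 without K8, K11, C2 or C8, to 2 without C2 and C9 together, and to 1 with the adipocyte covariate. Slc11a1, which encodes the phagosomal iron and manganese transporter NRAMP1, ran from 6.91 to 10.03 (median 8.53) in bled-side and from 6.06 to 8.17 (median 7.06) in sham nodes (1.34 ± 0.34, adjusted p = 0.0194). Its call was lost with the covariate (adjusted p = 0.0607) and without both C2 and C9 (adjusted p = 0.0767). Lrp1, the receptor that takes up haem bound to haemopexin, was higher by 0.73 ± 0.15 (adjusted p = 0.00549) and kept its call under every alternative tried. Hmox1, the gene of haem oxygenase 1, which splits haem into iron, biliverdin and carbon monoxide, did not pass the test. Its bled-side values spread from 7.99 to 11.75 (median 10.48), with 6 arrays above all sham arrays and 2 below all of them, and the sham values ran from 8.4 to 9.94 (median 8.71). The difference was 1.23 ± 0.41 (adjusted p = 0.0832), with a 95% interval of 0.39 to 2.07 before adjustment. None of 11 erythroid genes was called (median 0.08), and 3 of the 11 lay above the array median. Hba-a1, an alpha-globin gene, had means of 6.45 and 5.88 (0.57 ± 0.24, adjusted p = 0.188).

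**Figure D3:**
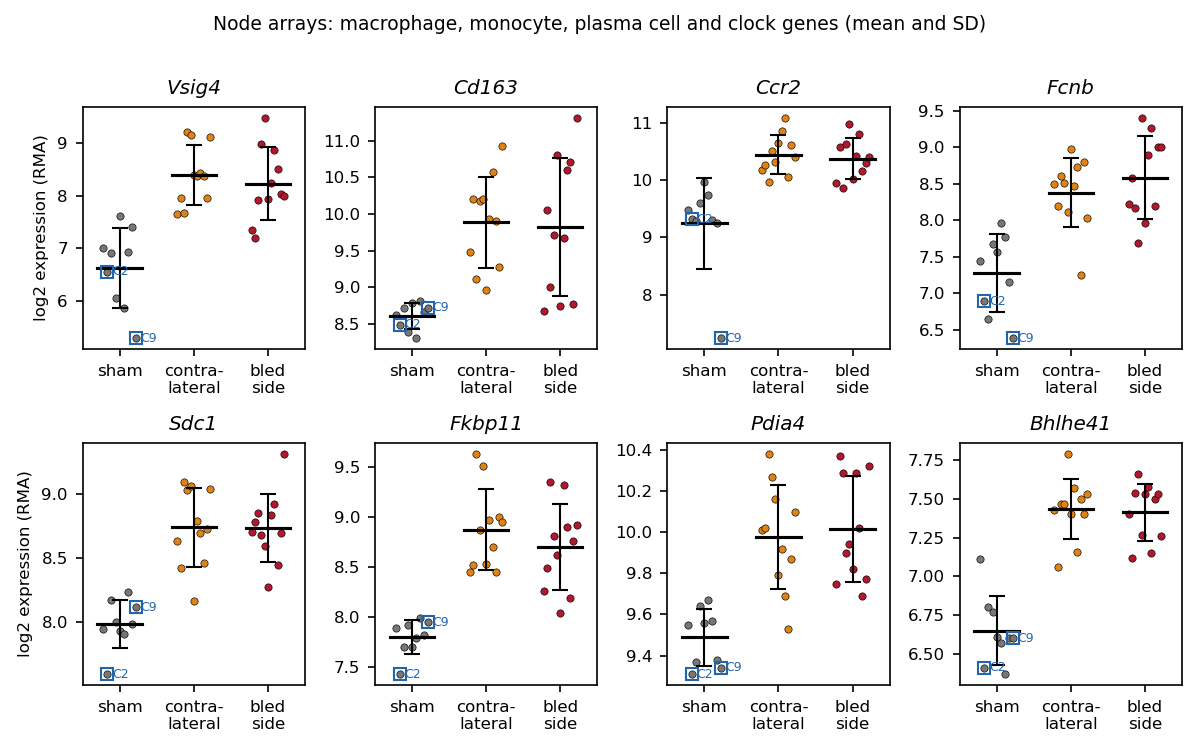
Log2 values (RMA) of 8 macrophage, monocyte, plasma cell, reticulum and clock genes in each node array, with mean and SD, in the same groups as above; squares mark sham rats C2 and C9. Sham C9 is the lowest point for Vsig4, Ccr2 and Fcnb, and the bled-side points of Sdc1, Fkbp11, Pdia4 and Bhlhe41 lie above every sham point.

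Of 17 measured germinal centre and plasma cell genes 8 were higher and none was lower, with a list median of 0.54. Sdc1, the syndecan that marks plasma cells, ran from 8.27 to 9.31 (median 8.7) in bled-side and from 7.59 to 8.23 (median 7.98) in sham nodes, with no overlap (0.75 ± 0.11, adjusted p = 0.00087). Fkbp11, a prolyl isomerase gene of secretory cells, also did not overlap, at 8.04 to 9.35 against 7.43 to 7.99 (0.90 ± 0.16, adjusted p = 0.0021). Derl3, a component of reticulum-associated degradation, differed by 0.79 ± 0.16 (adjusted p = 0.00578). Mzb1 differed by 0.80 (adjusted p = 0.0365), but its call was lost without any 1 of 9 arrays. It was also lost with the adipocyte covariate (adjusted p = 0.0813) and without C2 and C9 (adjusted p = 0.0827). The other called members included Prdm1 and Xbp1, the transcription factors of plasma cell differentiation, at 0.65 and 0.54, and Jchain, the joining chain of secreted antibody, at 0.57, which are named here after their values were seen. The count was 5 without K11, 5 without C2, 6 without C2 and C9, and 5 with the adipocyte covariate.

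Endoplasmic reticulum folding genes had the highest share of called members of the 36 lists. Of 25 measured, 14 were higher and none was lower, with a median of 0.30. Pdia4, a disulfide isomerase gene, ran from 9.69 to 10.37 (median 9.94) in bled-side and from 9.31 to 9.67 (median 9.55) in sham nodes, with no overlap (0.53 ± 0.10, adjusted p = 0.00358). Pdia6, of the same family, differed by 0.48 ± 0.09 (adjusted p = 0.00324), and Hyou1, a chaperone of the reticulum, by 0.48 ± 0.11 (adjusted p = 0.00834). Changes were small in size, from 0.28 for Sel1l to 0.55 for Sdf2l1, and the latter, also counted among the plasma cell genes, lost its call without any 1 of 8 arrays. The count was 8 without C2, 9 without C2 and C9, and 6 with the adipocyte covariate.

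Several of these genes are known to respond to unfolded proteins through a composite promoter element, CCAAT and CCACG spaced by 9 bases of any kind. It was found, on either strand, in 6 of the 21 promoters matched for this list and in 3 of the 12 of its called members, and in 0.066% of all 33469 promoters. The sequence before Hsp90b1, which encodes the chaperone GRP94, is shown because its 11 bled-side values were all above its 9 sham values (0.31 ± 0.07, adjusted p = 0.011) and it holds 2 such elements, in capitals. It covers chr7:23012294-23012543 of GRCr8, minus strand, the 250 bases before the RefSeq start.
Hsp90b1: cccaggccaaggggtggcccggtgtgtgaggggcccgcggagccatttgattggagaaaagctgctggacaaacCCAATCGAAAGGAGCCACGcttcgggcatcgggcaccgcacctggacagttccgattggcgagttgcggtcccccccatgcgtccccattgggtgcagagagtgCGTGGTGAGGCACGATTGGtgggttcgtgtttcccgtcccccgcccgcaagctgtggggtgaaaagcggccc
Hspa5, Canx and Creld2 hold the element and were not called, with differences of 0.28, 0.11 and 0.58.

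Of 15 measured complement genes 5 were higher and none was lower (median 0.32), and the count was 5 without C2, without C9, without both, and with the adipocyte covariate. Cfb, factor B of the alternative pathway, ran from 7.77 to 8.78 (median 8.41) in bled-side and from 6.87 to 7.72 (median 7.28) in sham nodes (0.93 ± 0.13, adjusted p = 0.000297). C3ar1, the receptor of the C3a peptide, ran from 6.71 to 8.76 against 5.25 to 6.51 (1.28 ± 0.24, adjusted p = 0.00358). Serping1, which encodes the C1 inhibitor, differed by 0.48 ± 0.08 (adjusted p = 0.00155), and C1r, a protease of the classical pathway, by 0.34 ± 0.06 (adjusted p = 0.00324). In all 4 of these genes the groups did not overlap. The fifth called member was C1s, at 0.32, named after its value was seen.

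Stroma, matrix and vessel genes were called in a few members of each list. Timp1, an inhibitor of matrix metalloproteinases, ran from 9.07 to 10.95 (median 10.2) in bled-side and from 7.81 to 8.88 (median 8.66) in sham nodes, with no overlap (1.33 ± 0.25, adjusted p = 0.00342). It was among 4 higher members of 22 matrix protease and inhibitor genes (median 0.22), with Mmp19 at 0.64 ± 0.15 and Ctsb at 0.32 ± 0.07, and with Adamts1, whose call was lost without C2. Mmp19 and Ctsb lost their calls with the adipocyte covariate, and Mmp19 also without C2 and C9. That list had 2 higher members without both arrays and 1 with the covariate. Of 21 stromal and reticular cell genes 4 were higher (median 0.12), including Pdgfra (0.48 ± 0.07, adjusted p = 0.000261, no overlap) and Pdpn, the podoplanin gene (0.53 ± 0.10, adjusted p = 0.00358), and the count was 2 without both arrays and 3 with the covariate. Sele, which encodes E-selectin of activated endothelium, ran from 6.21 to 7.61 (median 7) against 5.3 to 6.16 (median 5.7), again with no overlap (1.23 ± 0.19, adjusted p = 0.00087). It was 1 of 2 higher members among 18 lymphatic and blood endothelial genes (median 0.20). The other was Icam1 (0.26 ± 0.08, adjusted p = 0.0476), whose call was lost without any 1 of 14 arrays, while 4 members were called without K6 and 1 without C2 and C9 or with the covariate.

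Chemokine genes rose in 9 of 30 measured members and fell in none (median 0.18). Cxcl14, a chemokine gene of stromal and epithelial cells, ran from 7.44 to 9.96 (median 8.75) in bled-side and from 6.8 to 7.72 (median 7.43) in sham nodes (2.65-fold, SE 0.21 on the log2 scale, adjusted p = 0.000786). In 10 of 11 bled-side arrays it exceeded all sham arrays, and it kept its call under every alternative. Cxcl10, a ligand of CXCR3 on T cells, differed by 0.73 ± 0.17 (adjusted p = 0.0145). Ccl7, a ligand of CCR2, differed by 1.05 ± 0.28 (adjusted p = 0.0263), and its call was lost without K7, K11 or C2. Ccl20, which attracts cells bearing CCR6, differed by 0.98 ± 0.28 (adjusted p = 0.0424) and lost its call without any 1 of 15 arrays. The count was 6 without K7, 6 without K11, 4 without C2, 3 without C2 and C9, and 5 with the adipocyte covariate. Ccl2, the main chemoattractant of monocytes, had bled-side values of 8.39 to 10.69 (median 9.53) and sham values of 7.87 to 9.35 (median 8.83), and did not pass the test (0.67 ± 0.22, adjusted p = 0.0825).

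Inflammatory cytokine genes were called in both directions, set beside 3.03% higher and 2.46% lower of all named genes. Of 19 proinflammatory cytokine genes 1 was higher and 2 were lower (median 0.05). The higher was Il33, an alarmin of stromal cells, at 10.59 to 11.72 against 9.91 to 10.62 (0.62 ± 0.14, adjusted p = 0.0115), but its call was lost with the adipocyte covariate and without C2 and C9. The lower were Lta, the lymphotoxin alpha gene that maintains node structure (−0.48 ± 0.12, adjusted p = 0.0226), whose call was lost without C2, and Tnf (−0.32 ± 0.09, adjusted p = 0.0431), whose call was lost without any 1 of 15 arrays. Il6 ran from 5.79 to 7.61 (median 6.13) in bled-side and from 4.76 to 6.51 (median 5.7) in sham nodes (0.72 ± 0.25, adjusted p = 0.101). Il1b differed by 0.41 ± 0.15 (adjusted p = 0.115). Arg1, the arginase of alternatively activated macrophages, had means of 4.90 and 4.76, and Mmp3, stromelysin, 4.93 and 4.99, below the array median in both groups and with adjusted p of 0.459 and 0.804. Of 17 anti-inflammatory and feedback genes 4 were higher (median 0.28), among them Zfp36, whose protein destabilises cytokine mRNAs (0.67 ± 0.13, adjusted p = 0.00393), and the count was 2 without C2, 2 without C2 and C9, and 1 with the covariate.

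Interferon-stimulated genes were higher in 9 of 34 measured members and lower in none (median 0.24). Mx2, an antiviral GTPase gene, ran from 7.95 to 9.68 (median 8.75) in bled-side and from 6.72 to 9.23 (median 7.53) in sham nodes (1.07 ± 0.27, adjusted p = 0.0184). Sham rat C1 held the highest sham value of Mx2, and only 3 bled-side arrays exceeded it. Ifit3 ran from 5.94 to 7.63 (median 6.38) against 5.19 to 6.64 (median 5.49), with C1 again the highest sham array (0.86 ± 0.22, adjusted p = 0.0187). Oasl differed by 0.85 ± 0.22 (adjusted p = 0.0205). Isg15, a ubiquitin-like modifier gene, differed by 0.88 ± 0.23 (adjusted p = 0.027) and lost its call without K11 or C2. The count was 6 without K11, 6 without C2, 3 without C2 and C9 together, and 8 with the adipocyte covariate. Mx2 (0.93, adjusted p = 0.0713) and Oasl (0.75, adjusted p = 0.0758) lost their calls without both arrays.

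The interferon-stimulated response element binds the ISGF3 complex downstream of type I interferon. Its core was searched as GAAA, 2 bases of any kind and GAAA again, on both strands, and it was found in 16 of 26 matched promoters of the list, in 5 of the 6 of called members, and in 3.92% of all 33469 promoters. The 250 bases before Ifit3, at chr1:241527076-241527325 of GRCr8 on the plus strand, are shown as a called member with the match in capitals, read here on the opposite strand.
Ifit3: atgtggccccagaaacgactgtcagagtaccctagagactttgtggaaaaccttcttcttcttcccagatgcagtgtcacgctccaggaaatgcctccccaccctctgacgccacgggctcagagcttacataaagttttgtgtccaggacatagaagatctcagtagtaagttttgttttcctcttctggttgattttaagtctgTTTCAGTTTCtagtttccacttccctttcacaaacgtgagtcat

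Clock genes differed between the groups in both directions. Of 15 core circadian loop genes 5 were higher and 1 was lower (median 0.22). Bhlhe41, which encodes the clock repressor DEC2, had the smallest adjusted p of all probe sets. Its bled-side values ran from 7.12 to 7.66 (median 7.5) and its sham values from 6.37 to 7.11 (median 6.6), with no overlap (0.76 ± 0.09, adjusted p = 3.67e-05). Bhlhe40, encoding DEC1, differed by 0.53 ± 0.12 (adjusted p = 0.00851), and Ciart, another repressor of the loop, by 0.49 ± 0.11 (adjusted p = 0.00994). Nr1d1, encoding REV-ERB alpha, differed by 0.58 ± 0.16 (adjusted p = 0.0336), and its call was lost without K3, K4, K6, C8 or C9. Chosen after their values were seen, Per2, a repressor, was higher by 0.42, and Bmal1, the activator of the loop, was lower by 0.41 (−0.41 ± 0.08, adjusted p = 0.00324). Among 6 clock output factors Tef (0.49 ± 0.12, adjusted p = 0.019) and Dbp (0.51 ± 0.15, adjusted p = 0.0437) were higher, and Dbp lost its call without any 1 of 15 arrays. The core list had 4 higher and 1 lower without C2 and C9, and 3 and 1 with the adipocyte covariate, and neither setting left a call among the output factors. With the covariate Nr1d1, Ciart and Tef lost their calls. The sources used here did not give the hour at which each rat was killed, and time of day was not tested.

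The E-box CACGTG, which the CLOCK and BMAL1 dimer binds, lay in 3 of 13 matched promoters of the core list, those of Bhlhe40, Bhlhe41 and Ciart, which were all among the called members, and in 6.418% of all 33469 promoters. Ciart is shown because it holds 3 matches within 250 bases, at chr2:186112247-186112496 of GRCr8, minus strand.
Ciart: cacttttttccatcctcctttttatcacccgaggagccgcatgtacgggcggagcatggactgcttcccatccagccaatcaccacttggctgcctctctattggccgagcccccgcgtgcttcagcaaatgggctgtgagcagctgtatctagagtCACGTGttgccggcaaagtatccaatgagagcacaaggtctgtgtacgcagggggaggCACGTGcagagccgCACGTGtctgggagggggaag

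Glucocorticoid-responsive genes were higher in 3 of 15 measured members (median 0.29). Dusp1, a phosphatase gene, ran from 9.5 to 10.41 (median 10.09) in bled-side and from 7.56 to 10.4 (median 8.91) in sham nodes (0.92 ± 0.22, adjusted p = 0.0164), so the sham spread exceeded the bled-side spread and only 1 bled-side array was above the highest sham array. Its call was lost with the adipocyte covariate (adjusted p = 0.0603) and without C2 and C9 (adjusted p = 0.0672). Sgk1, a kinase gene, differed by 0.50 ± 0.11 (adjusted p = 0.00834). Cdkn1a, the gene of the cell cycle inhibitor p21, differed by 0.41 ± 0.10 (adjusted p = 0.0205) and lost its call without C2. The glucocorticoid list had 1 higher member without C2 and C9 and 1 with the covariate. Immediate-early genes were higher in 3 of 20, led by Ier3 (0.69 ± 0.13, adjusted p = 0.00358), with Junb and Klf6, and the count was 5 without K10 and 1 without C2, without C2 and C9, or with the covariate. Of 15 heat-shock genes 2 were higher (Hspb1 at 0.61 and Bag3 at 0.29), and none was called without C2, without C2 and C9, or with the covariate.

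Lymphocyte lists held none or a few called members each, set beside 5.49% of all named genes called in either direction. None of 21 T cell markers (median −0.10), 15 natural killer and cytotoxic genes (0.14) or 32 cell cycle genes (0.08) was called. Of 16 B cell markers Pou2af1, a coactivator for antibody genes, was higher (0.48 ± 0.11, adjusted p = 0.0103) and Cd72, an inhibitory receptor gene, was lower (−0.35 ± 0.09, adjusted p = 0.025), the latter without its call when K11 or C2 was left out. Of 20 T cell activation genes the inhibitory receptors Lag3 (0.55 ± 0.13, adjusted p = 0.0133) and Ctla4 (0.43 ± 0.11, adjusted p = 0.0252) were higher. Dendritic cell markers gave 1 higher, Itgax (0.40 ± 0.09, adjusted p = 0.00837), and 2 lower of 16, the activation markers Cd40 (−0.31) and Cd83 (−0.23). Cd40 lost its call without K2, K4, K8, K11 or C2, and Cd83 without K4, K5, K11, C3 or C7. Of 22 antigen presentation genes 3 were higher, led by the lysosomal protease gene Lgmn (0.78 ± 0.16, adjusted p = 0.00505), and Ciita, the master regulator of MHC class II, was lower (−0.40 ± 0.09, adjusted p = 0.00834), at 9.01 to 9.83 against 9.68 to 9.99. The count of higher members was 1 without C2, without C2 and C9, and with the covariate, and 1 was lower in each. Of 14 leukocyte trafficking genes only Itgb1 was called (0.21 ± 0.05, adjusted p = 0.0141). Without C2 and C9 the calls of Pou2af1, Lag3, Ctla4 and Itgb1 were lost, and all but that of Pou2af1 were also lost with the adipocyte covariate.

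In the remaining lists called members were few in number, which is not in every list a low share beside 5.49% of all named genes. Of 24 coagulation and fibrinolysis genes 2 were higher, Procr (0.41) and Plaur (0.29), and F8, the factor VIII gene itself, was lower (−0.27 ± 0.07, adjusted p = 0.0339), at 6.16 to 6.63 against 6.38 to 6.91. These 3 calls were lost on leaving out any 1 of 12, 16 and 8 arrays, and 1 higher and no lower member was called without C2 and C9, and none with the covariate. None of 17 hypoxia and glycolysis genes was called, and 1 of 18 sterol and fatty acid synthesis genes was (Fads1, 0.37, lost without any 1 of 7 arrays). Of 18 skeletal muscle genes 2 were lower, Tnnt3 (−0.38) and Neb (−0.32), and each call was lost without any 1 of 13 and 12 arrays. The muscle marker genes Ckm (6.27 and 6.34) and Acta1 (5.86 and 6.16) were not called. The 1 measured sex-linked gene, Uty, was not called (−0.18 ± 0.14).

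**Figure D4:**
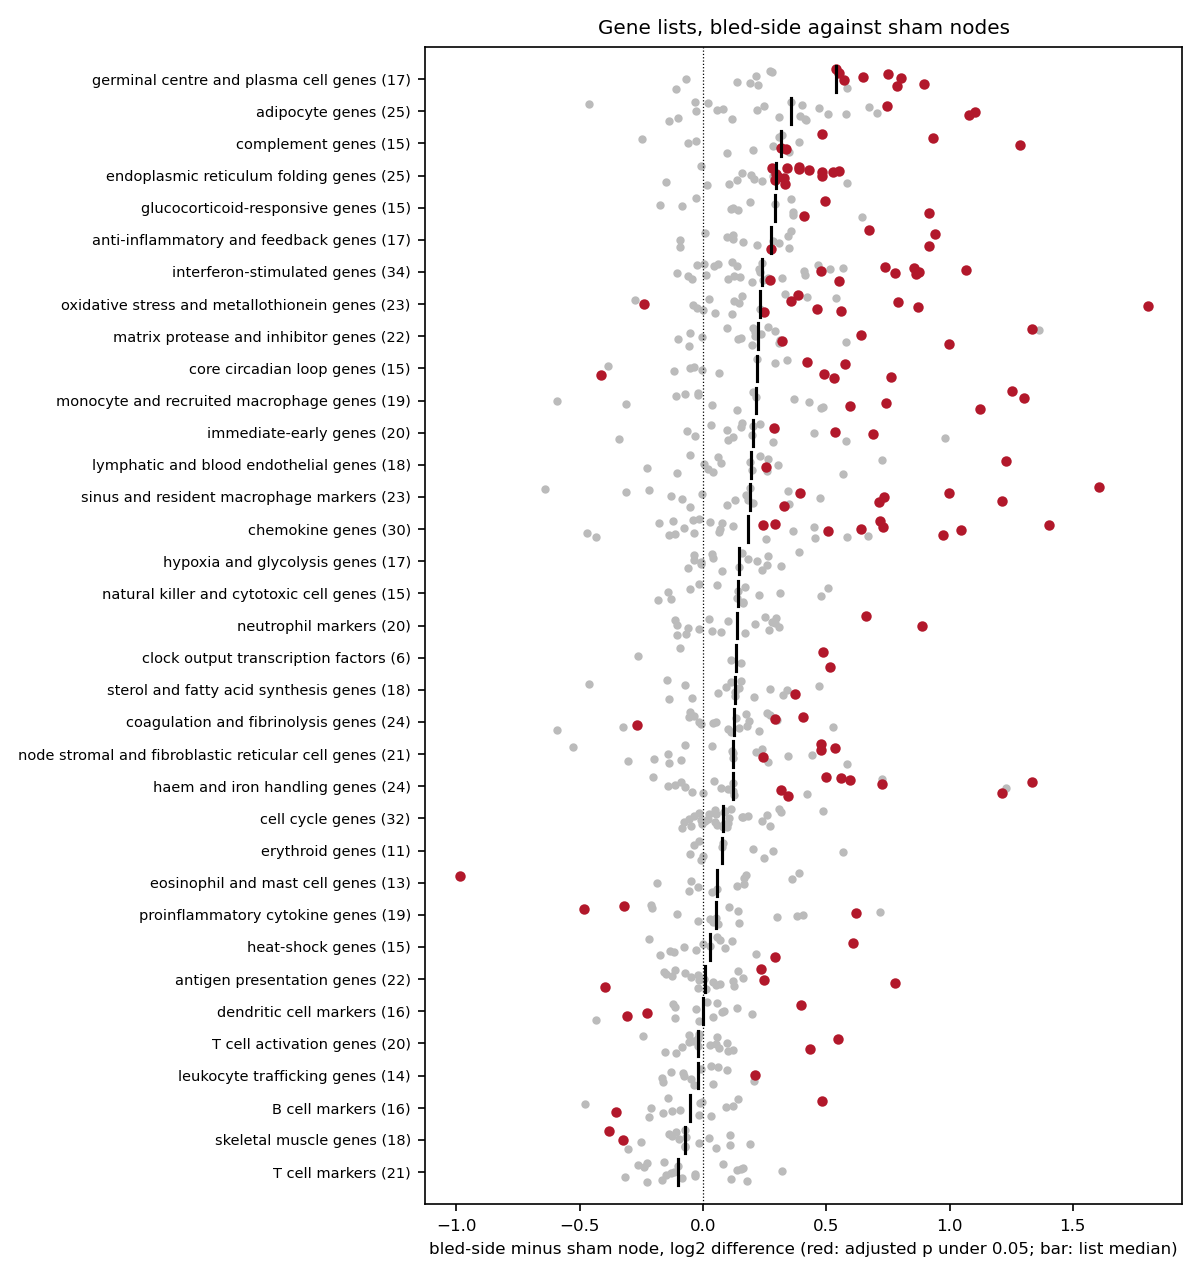
Log2 difference, bled-side minus sham node, of each measured member of the gene lists (points; number measured in parentheses), ordered by list median (bar), with called members at an adjusted p under 0.05 in red. Plasma cell genes have the highest median (0.54) and T cell markers the lowest (−0.10).

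Adipocyte genes were higher in 3 of 25 measured members (median 0.36): Lep, Cidec and Pparg. Lep, the leptin gene, ran from 5.09 to 8.09 (median 6.79) in bled-side and from 4.6 to 6.82 (median 5.39) in sham nodes (1.10 ± 0.33, adjusted p = 0.0473). Cidec, a lipid droplet gene, differed by 1.08 ± 0.30 (adjusted p = 0.0339) and Pparg, the regulator of fat cell differentiation, by 0.75 ± 0.20 (adjusted p = 0.0269). The defining markers Adipoq (0.42 ± 0.29), Plin1 (0.47 ± 0.25) and Fabp4 (0.58 ± 0.28) were not called. No adipocyte gene was called higher without C2 (1 was lower) or without K7, and 6 were called higher and 1 lower without K10. With the adipocyte mean as covariate, 485 probe sets were called (269 higher, 216 lower), of which 475 were among the 1561. The part of fat tissue in the results above was not tested beyond these values.

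Genes lower in the bled-side node changed by less than 2-fold in all but 2 probe sets. Prg2, which encodes the major basic protein of eosinophils, ran from 5.87 to 7.62 (median 6.52) in bled-side and from 7.02 to 7.97 (median 7.82) in sham nodes (−0.99 ± 0.21, adjusted p = 0.00712), and 8 of 11 bled-side arrays lay below all sham arrays. It was the only called member of 13 eosinophil and mast cell genes (median 0.06). Spon2, a secreted matrix protein gene, ran from 6.07 to 7.24 against 7.03 to 7.72 (−0.83 ± 0.14, adjusted p = 0.00155), with 10 of 11 bled-side arrays below the sham range. Uhrf2, a reader of modified DNA, ran from 9.96 to 10.72 (median 10.34) against 10.71 to 11.38 (median 10.95), at −0.57 ± 0.09 (adjusted p = 0.00087), and again 10 of 11 arrays lay below the sham range.

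Havcr1, the TIM-1 gene of lymphocytes and kidney, was lower by 0.58 (−0.58 ± 0.12, adjusted p = 0.00505), and Col14a1, a fibril-associated collagen gene, by 0.59 (−0.59 ± 0.11, adjusted p = 0.0039). Dnmt3l, a cofactor of DNA methyltransferases, differed by −0.77 ± 0.17 (adjusted p = 0.00851), and Rsrp1 by −0.55 ± 0.10 (adjusted p = 0.00358). These 7 genes kept their call under every alternative. Foxred2, at −0.80 ± 0.21, lost its call without K8 or K11. Trpm6, a magnesium channel gene, at −0.65 ± 0.17, lost its call without K11 or C2, and Fsip1, at −0.52 ± 0.14, without C2. The olfactory receptor Or10aa3 (−0.61) and the MHC gene RT1-Ha (−0.51) lost theirs without any 1 of 10 and 15 arrays. Spo11 (−0.67), Wif1 (−0.60), a Wnt inhibitor, and Kcnj10 (−0.55), a potassium channel gene, made up the 15 largest. With the adipocyte covariate Foxred2, Trpm6, Fsip1, Or10aa3, RT1-Ha, Spo11 and Kcnj10 were not called. Spo11 (means 5.16 and 5.83), Or10aa3 (5.27 and 5.88) and Fsip1 (5.53 and 6.05) passed the median level of 5.76 only in the sham group, and all 3 drop out when dim probe sets are left out. Dnmt3l also passed that level by its mean only in the sham group, with values of 5.12 to 6.68 in bled-side and 5.66 to 7.09 in sham nodes.

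Precursor miRNAs were read by 363 probe sets, of which 8 were lower and none higher, a share near the 2.34% of all probe sets that were lower. All 8 lay below the array median. Among them were Mir342 (means 4.06 and 4.87, −0.81 ± 0.16, adjusted p = 0.00435), Mir19b2 (3.35 and 4.07, −0.72 ± 0.13, adjusted p = 0.00342) and Mir19a (−0.41 ± 0.12, adjusted p = 0.0456), which were picked out after their values were seen. These probe sets read the precursor, and the mature arms were not measured.

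The contralateral node of the same bled rats, a right node as in the sham rats, was set against the same sham arrays. There 1844 probe sets (5.03%) were called, and of named genes 3.72% were higher and 3.03% lower. For Mt2A the differences from sham were 1.80 on the bled and 1.45 on the contralateral side, for Vsig4 1.61 and 1.77, for Sdc1 0.75 and 0.75, for Bhlhe41 0.76 and 0.79, and for Prg2 −0.99 and −0.95. These comparisons share their control arrays, C2 and C9 included. Ccl7 stood at 1.05 and 0.60, and Lag3 at 0.55 and 0.31, with adjusted p of 0.218 and 0.16 on the contralateral side. Tested directly, no probe set was called between the 2 sides (limma, smallest adjusted p of 1, 860 of 36685 at an unadjusted p under 0.05). With rat as a block, which takes into account that both nodes came from 1 animal, none was called either (smallest adjusted p of 0.231, 1766 at an unadjusted p under 0.05). In the fit with the block the 95% interval of the bled minus contralateral difference was −0.068 to 0.78 for Mt2A and −0.0031 to 0.90 for Ccl7. Among the 123 named genes, 8 had an interval that left out 0 before adjustment, against 3 without the block. Each share was near that of all probe sets in the same fit (1766 and 860 of 36685 at an unadjusted p under 0.05). Col14a1 (−0.34, −0.53 to −0.16), Spon2 (−0.36, −0.59 to −0.14) and Adipoq (−0.57, −1.07 to −0.077) were among the 8 and among the 3. The other 5 were Havcr1 and Dbp, with lower values on the bled side, and Ccl2 (0.42, 0.052 to 0.79), Ier3 and Lag3, with higher values there. None of the 8 passed the adjustment over all probe sets. Adipocyte genes were called higher in 9 of 25 members in the contralateral node, where the list mean ran from 8.03 to 8.61.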

How the data were processed

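RNA of 31 nodes was measured on Affymetrix arrays, 1 array per node. The deposited values are on a log2 scale and, per the submitters' processing notes, were made by RMA with Affymetrix Expression Console 1.4.46. They ran from 1.62 to 14.03. The sources used here gave no RMA options. The number of arrays limits the precision, and no array was left out.

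A limma model (3.58.1, R 4.3.3) of the 3 node groups (bled 11, contralateral 11, sham 9) was fitted to all 36685 probe sets, with Benjamini-Hochberg adjustment over each contrast and calls at an adjusted p under 0.05. Differences are log2, given ± SE. Symbols came from the array's platform annotation: 18511 probe sets had 1 symbol, 575 several and 17599 none, and 18394 were matched to RefSeq by gene ID. Each of 18166 genes was represented by its probe set of highest mean. Named were the 15 largest called changes each way above the median level, up to 4 called members of each of 36 lists, 7 fixed genes (Il1b, Il6, Tnf, Ccl2, Hmox1, Arg1, Mmp3) and markers of fat, muscle and red cells. The members and lists were chosen with earlier results of these data known. The 14 alternatives to the reported fit were other scalings, filters and models, and each of the 20 arrays was left out in turn. Sequences are RefSeq's, GRCr8. Python 3.11.15, numpy 2.4.6, pandas 2.3.3 and matplotlib 3.10.9 were used, and the model was tested on simulated data. Rats K1 to K11 gave both a bled and a contralateral node: deviations from group means correlated at 0.121 to 0.324 within rats (mean 0.233, 11 pairs), and limma's duplicateCorrelation was 0.266.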

Additional observations from a re-analysis of the deposited data

Results flagged for a closer look

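Of 160 values checked in the 9 sham nodes, 30 had an extreme array whose gap to the nearest other array was a larger share of the whole range than Dixon's 95% critical value. For a single set of normal values, chance gives such a gap in about 1 of 20 groups. These 160 values share the same 9 arrays, and many are genes picked for their calls. That rate therefore does not hold for them as a set. The extreme array was C9 in 23 of the 30, C2 in 5 and C1 in 2.

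The correlation of C9 with the rest of its group was 0.9655. It held the lowest mean for the B cell markers (10.16, next 10.76), the haem and iron handling genes (8.278, next 8.54), the core circadian loop genes (7.969, next 8.243), the matrix protease and inhibitor genes (7.593, next 7.9) and the monocyte and recruited macrophage genes (7.456, next 7.729). Among single genes it was lowest for Ccr2 (7.25, next 9.25), Clec7a (5.77, next 7.09), Slc39a14 (7.12), Derl3 (6.21), Bhlhe40 (9.12), Gclm (7.94), Zfp36 (9.93), Nqo1 (5.17), Dbp (9.48) and Cdkn1a (6.37). The same held for Ctla4 (5.84), Ciart (5.27), Timp1 (7.81), Sgk1 (8.28), Tapbp (10.04) and Pdgfra (9.64), whereas Mmp3 was highest in C9 (5.53). Apart from Mmp3, these genes were all called higher in the bled-side node, and without C9 those of Slc39a14 (adjusted p = 0.0761) and Dbp (adjusted p = 0.0734) lost their calls and the other 14 kept theirs.

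C2 was lowest for C1r (11.1, next 11.43), Gsta1 (5.76, next 6.44) and Procr (7.46), and highest for Cd72 (10.89) and Cd40 (9.61, next 9.14). C1 was highest for the interferon-stimulated genes Mx2 (9.23, next 7.91) and Ifit3 (6.64, next 5.87), which were higher in the bled-side nodes. The part of these arrays in the results was not tested beyond the values given without them.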

How the results depend on the processing

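None of the 110 named genes called turned sign under any alternative, and the other called probe sets were not checked for sign. Of the genes not called, Slc4a1 (−0.018) stood at 0.036 with quantile normalization, 0.038 with median centring, 0.026 with array weights, 0.0028 without C2, 0.010 without C9, 0.038 without both and 0.026 with the covariate and without both, and ran from −0.082 to 0.015 on leaving out each array in turn. Mmp3 (−0.052) stood at 0.0033 with median centring, 0.022 with array weights, 0.016 without C9, 0.019 without both and 0.031 with the covariate and without both, and ran from −0.084 to 0.016 on leaving out each array in turn. With the covariate, whose mean includes these genes, Adipoq went from 0.42 to −0.14 (−0.15 without both arrays as well) and Plin1 from 0.47 to −0.025. Of the 110 named genes called, 37 kept their call under all 34 alternatives, arrays left out included, and 69 kept it on leaving out each array in turn. Against 1561 calls (701 higher, 860 lower, 43 at least 2-fold higher, 2 at least 2-fold lower), leaving out each array in turn gave 803 to 2122 calls, 398 to 833 higher, 405 to 1372 lower, 30 to 57 at least 2-fold higher and 1 to 9 at least 2-fold lower. Without C2 there were 803 calls (398 higher, 405 lower, 1 at 2-fold lower), without C9 1372 lower and 9 at 2-fold lower, and without both 926 (359 higher, 567 lower, 18 and 1 at 2-fold). With the adipocyte mean as covariate there were 485 (269 higher, 216 lower, 24 and 1 at 2-fold), and with the covariate and without both arrays 386 (177 higher, 209 lower, 16 at 2-fold higher). Fitting only the compared groups gave 857 (411 higher, 446 lower, 1 at 2-fold lower). An adjusted p under 0.01 gave 372 (205 higher, 167 lower, 23 and 1 at 2-fold). Centring on array medians turned the split of directions, with 938 higher against 414 lower, and 1 at 2-fold lower, array weights 27 at 2-fold higher, and leaving out dim probe sets or using 1 probe set per gene gave 0 at 2-fold lower. With rat as replicate block 1677 were called (757 higher, 920 lower), and the block changed the call of none of the 123 named genes. The causes were not tested. Dim probe sets are compressed by RMA, so their differences may be understated.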
